A study of Mus with 8 samples.

Results

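The 32 genes described here encode enzymes of cholesterol and fatty acid synthesis, the proteins that sense sterols and switch those enzymes on, and the pumps that carry cholesterol out of cells. They were chosen by gene symbol, with earlier results of these data known. All 32 were found among the 31269 gene symbols of the count table, with Msmo1 listed under its older symbol Sc4mol, and all 32 were among the 17629 genes that passed the filter on low counts. By role, 7 belong to the mevalonate arm, 11 to the squalene and sterol arm, 6 to regulation and sterol transport, 6 to fatty acid synthesis and 2 to cholesterol efflux.

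Cholesterol is built from acetyl-CoA through mevalonate, isoprenoid units, squalene and lanosterol. When sterol falls in the endoplasmic reticulum membrane, SCAP escorts the SREBP transcription factors to the Golgi, where they are cut and released to the nucleus; INSIG proteins hold SCAP back when sterol is plentiful. SREBP2 mainly drives sterol synthesis genes and SREBP1 mainly fatty acid synthesis genes, while liver X receptors, activated by oxysterols, raise the efflux pumps. In the uterus, membrane lipid is needed by dividing and remodelling cells.

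RNA was sequenced from mouse uterus on pseudopregnancy day 6, a state kept up by progesterone after mating with a sterile male, in 4 control libraries and 4 libraries labelled with a myometrial deficiency of the progesterone receptor (PGR). The strain, age, alleles and Cre driver are not stated in the labels, nor is it stated that each library came from its own animal, so p-values measure the spread between libraries. The labels place the tissue around implantation sites, although a pseudopregnant uterus holds no embryos. Total counts ran from 70296369 to 72364750 per library.

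Transcript of the targeted gene, Pgr, was not reduced under the deficiency label. It measured 131, 179.96, 144 and 171 CPM (reads relative to library size, scaled by TMM) in control libraries 1 to 4 and 187, 184, 177 and 159.7 CPM in libraries 1 to 4 labelled deficient (log2 difference 0.18 ± 0.11 SE, adjusted p = 0.338 in edgeR). Directions therefore rest on the labels alone. Counts from whole uterus cannot show whether PGR was lost in the myometrium. Markers of smooth muscle, epithelium and endometrial stroma were all present (the summed CPM of 10, 12 and 7 markers was at least 4565, 1655 and 2925 in every library), so these are whole-tissue values. In such tissue, more cells of a type and more RNA per cell cannot be told apart. Library 2 labelled deficient stood apart from the rest: it held the highest value of the 8 libraries in 28.6% and the lowest in 28.1% of all tested genes, against 5.32% to 14.6% and 5.20% to 15.2% for the other libraries. Results are therefore given with and without it.

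Over all 8 libraries, small p-values were less frequent among the 32 genes than among all tested genes, and without library 2 labelled deficient they were more frequent; neither difference was tested. In edgeR's quasi-likelihood test none of the 32 passed an adjusted p of 0.05, and neither did any other gene (0 of 17629, 0.00%). At an unadjusted p under 0.05 there were 6 of the 32 genes (18.8%), against 24.8% of all tested genes. Those higher in the labelled deficient libraries were Idi1, Sqle, Fasn and Scd2 (4 of 32, against 13.0% of all genes in that direction), and those lower were Insig2 and Abca1 (2 of 32, against 11.8%). No overlap between the groups was seen for Sqle, Msmo1 and Fasn (higher; 7.61% of all genes) and for Insig2 (lower; 8.66%), which is 4 of 32 genes against 16.3% of all genes. DESeq2, run as an alternative, called Fasn higher (adjusted p = 0.0106; 7.43% of all genes in that direction) and Insig2 lower (adjusted p = 0.0194; 6.72%), 2 of the 31 genes to which it gave an adjusted p, against 14.2% of all genes; limma-voom called 0 of the 32 and 0.0113% of all genes. Without library 2, 9 of the 32 genes (28.1%) had an unadjusted p under 0.05 in edgeR, against 19.0% of all genes. Of these, Sqle, Acaca, Fasn and Scd2 were higher in the labelled deficient libraries, and Fdft1, Tm7sf2, Insig1, Insig2 and Abca1 were lower. DESeq2 without library 2, in a run added after seeing the data, called 4 (12.5%), against 8.79% of all genes. The median log2 difference was 0.26 over the 32 genes and 0.01 over all tested genes, and it was 0.10 and 0.02 without library 2.

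Sterol synthesis genes stood high in a single library. Over the 18 genes of the mevalonate, squalene and sterol arms, the median log2 level relative to the control mean was 1.11 in library 2 labelled deficient and 0.13, 0.09 and 0.07 in libraries 1, 3 and 4. In control libraries 1 to 4 it was -0.08, 0.05, 0.05 and -0.02. Library 2 had the highest value of all 8 libraries in 15 of the 18 genes (83.3%), and in 10 of them it exceeded the next highest library by more than 1.5 times (55.6%, against 4.52% of all tested genes). Summed over the 18 genes, it held 776 CPM, 2.12 times the median of the other 7 libraries, which ran from 340.1 to 394 CPM.

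**Figure D1:**
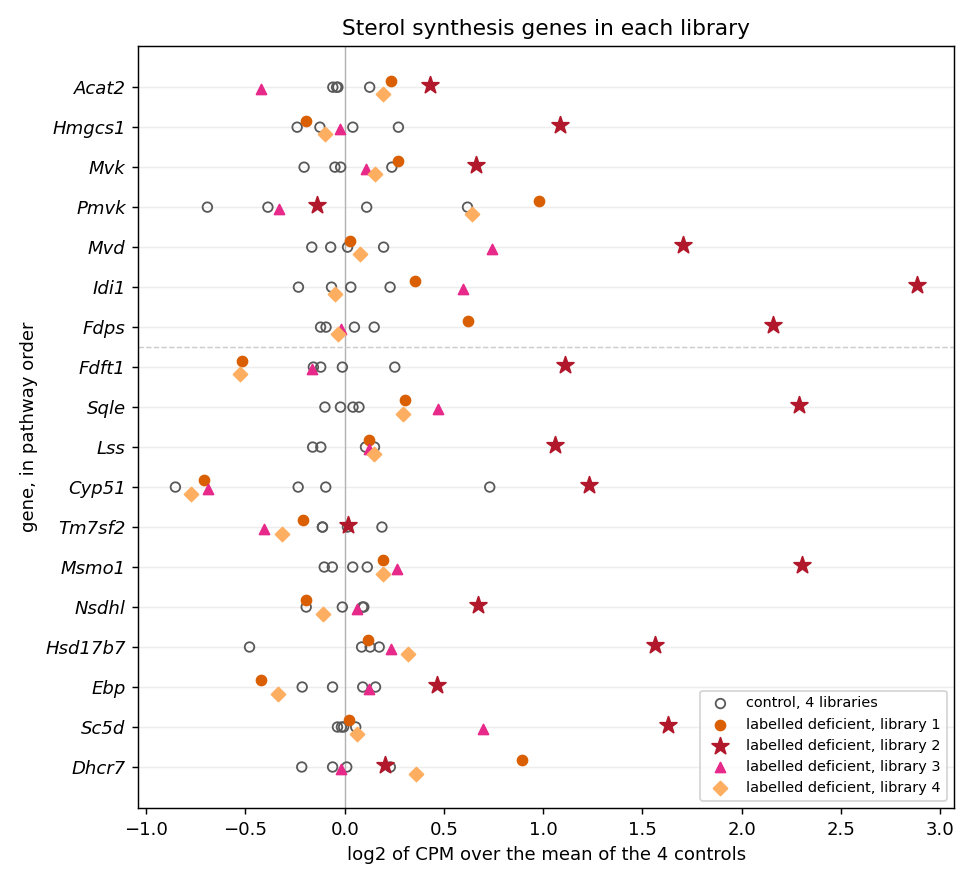
Level of each of the 18 sterol synthesis genes in each library, as the log2 of CPM over the mean of the 4 controls (x axis), with genes in pathway order (y axis; the dashed line parts the mevalonate arm from the squalene and sterol arm). Open circles are controls and filled symbols are the 4 libraries labelled deficient. The star, library 2, lies to the right of every other library in 15 of the 18 genes, while Pmvk, Tm7sf2 and Dhcr7 have another library highest.

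In the mevalonate arm the values parted most for Idi1, the isomerase that makes the reactive isoprenoid unit (chromosome 13, 8885606 to 8892396, GRCm38.p6). Idi1 measured 2.00, 2.40, 2.75 and 2.24 CPM in the controls and 3.00, 17.3, 3.55 and 2.27 CPM in libraries 1 to 4 labelled deficient. Library 2, with 1168 reads, was 7.22 times the median of the other libraries, and library 4 lay inside the control range. The log2 difference between groups was 1.48 ± 0.64 (SE; adjusted p = 0.199 in edgeR), and 0.33 ± 0.21 without library 2 (adjusted p = 0.442). DESeq2 gave no adjusted p for Idi1.

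Fdps, which joins isoprenoid units into farnesyl diphosphate, measured 9.85, 11.9, 11.1 and 10.04 CPM in the controls and 16.5, 47.8, 10.6 and 10.5 CPM in the labelled deficient libraries. Here library 1 also lay above the controls, and libraries 3 and 4 within them (log2 difference 0.99 ± 0.48, adjusted p = 0.237 in edgeR; 0.23 ± 0.18 without library 2, adjusted p = 0.540). Mvd, the decarboxylase that precedes Idi1, measured 10.3, 12.3, 9.60 and 10.9 CPM against 10.95, 35.05, 17.98 and 11.4 CPM. Libraries 2 and 3 were the high ones for Mvd, and its log2 difference was 0.81 ± 0.36 (adjusted p = 0.210; 0.32 ± 0.19 and 0.402 without library 2). Hmgcs1, the cytosolic synthase that commits acetyl units to the pathway, measured 53.4, 59.95, 49.4 and 70.3 CPM against 51.0, 123, 57.4 and 54.5 CPM. Without library 2 the sign of its log2 difference turned, from 0.30 ± 0.29 to -0.10 ± 0.12 (adjusted p = 0.540 and 0.70).

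The other members of this arm were less extreme or had another order of libraries. Mvk, mevalonate kinase, was at 24.1 CPM in library 2 and between 13.2 and 18.3 CPM in the other 7 libraries. Acat2, which makes the acetoacetyl-CoA that HMGCS1 uses, was at 20.5 CPM there and between 11.3 and 17.9 CPM elsewhere; it has a close copy, Acat3, with which the counting could have shared reads. Pmvk, the kinase after Mvk, did not follow library 2. It measured 34.3, 17.1, 24.1 and 13.8 CPM in the controls and 44.0, 20.2, 17.7 and 34.8 CPM in the labelled deficient libraries, so that the spread within each group was as wide as the gap between them (log2 difference 0.39 ± 0.37, adjusted p = 0.528 in edgeR).

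In the squalene and sterol arm, Sqle and Msmo1 separated the groups. Sqle encodes squalene epoxidase, a slow oxygen-using step of the pathway (chromosome 15, 59315092 to 59331193). It measured 11.5, 12.2, 13.0 and 12.7 CPM in the controls and 15.3, 60.4, 17.1 and 15.2 CPM in the labelled deficient libraries. All 4 of the latter lay above all controls, library 2 by far and the other 3 by a little. The log2 difference was 1.13 ± 0.46 with all libraries (adjusted p = 0.180 in edgeR) and 0.36 ± 0.09 without library 2 (adjusted p = 0.138). The lower estimate came with a smaller error, and DESeq2 without library 2, added after seeing the data, called Sqle (adjusted p = 0.00418), which it did not with all libraries (adjusted p = 0.0686).

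Msmo1, the C4 sterol methyl oxidase (chromosome 8, 64718123 to 64733578), measured 9.88, 11.2, 10.6 and 9.60 CPM in the controls and 11.8, 51.0, 12.4 and 11.8 CPM in the labelled deficient libraries. The groups did not overlap, though libraries 1, 3 and 4 lay only just above the highest control. Its log2 difference was 1.07 ± 0.50 (adjusted p = 0.221 in edgeR), and 0.22 ± 0.10 without library 2 (adjusted p = 0.287). For both Sqle and Msmo1 the exact permutation test (two-sided) returned p = 0.0286, the smallest that 4 against 4 libraries can give. Groups that do not overlap always return this value, so it only restates the separation, which 16.3% of all genes showed.

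Sc5d, the C5 desaturase, measured 12.6, 13.1, 12.5 and 12.3 CPM in the controls and 12.8, 39.0, 20.5 and 13.2 CPM in the labelled deficient libraries. As for Mvd, library 3 was the second highest, and library 1 overlapped the controls (log2 difference 0.76 ± 0.34, adjusted p = 0.211 in edgeR; 0.30 ± 0.17 and 0.381 without library 2). Hsd17b7, a sterol ketoreductase, stood at 14.2 CPM in library 2 and 3.44 to 5.99 CPM elsewhere. Lss, which closes squalene epoxide to lanosterol, stood at 22.6 CPM against 9.69 to 12.02 CPM, and Nsdhl, a sterol dehydrogenase, at 38.7 CPM against 21.2 to 25.96 CPM.

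Cyp51, the lanosterol demethylase, and Fdft1, squalene synthase, varied in the controls as well. Cyp51 measured 19.1, 32.2, 29.3 and 57.1 CPM in the controls and 21.1, 80.7, 21.3 and 20.1 CPM in the labelled deficient libraries. Control library 4 was thus the second highest, and libraries 1, 3 and 4 labelled deficient sat near the lowest control. Its log2 difference was 0.06 ± 0.53 with all libraries and -0.72 ± 0.33 without library 2 (adjusted p = 0.959 and 0.286 in edgeR). Fdft1 measured 32.8, 30.4, 29.6 and 39.3 CPM against 23.1, 71.4, 29.5 and 22.9 CPM. Library 2 was above and the other 3 libraries were below every control, library 3 only just, and the log2 difference went from 0.15 ± 0.36 to -0.39 ± 0.13 without library 2 (adjusted p = 0.814 and 0.193).

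At the end of the pathway, Ebp, the sterol isomerase, measured 70.4 CPM in library 2 and 38.00 to 56.7 CPM elsewhere. Tm7sf2, a C14 sterol reductase, did not stand high in library 2. It measured 18.9, 20.7, 23.3 and 18.9 CPM in the controls and 17.7, 20.7, 15.4 and 16.4 CPM in the labelled deficient libraries. With all libraries it was the only one of the 18 genes with a negative log2 difference (-0.22 ± 0.12, adjusted p = 0.280 in edgeR). Without library 2 its log2 difference was -0.30 ± 0.11 (adjusted p = 0.201 in edgeR). Dhcr7, a reductase at the end of the route to cholesterol, measured 16.0, 15.3, 18.7 and 13.7 CPM against 29.5, 18.3, 15.7 and 20.4 CPM. Its high libraries were 1 and 4, as for Pmvk (log2 difference 0.40 ± 0.20, adjusted p = 0.247).

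Of the 18 genes, 17 had a positive log2 difference with all libraries and 12 without library 2, against 52.0% of all genes with all libraries. The median went from 0.39 to 0.20 without library 2, and to 0.16 without libraries 2 and 3. Among the 32 genes, 6 had the other sign without library 2: Hmgcs1, Fdft1, Cyp51, Nsdhl, Ebp and Insig1. None of the 32 was called by edgeR in either case.

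**Figure D2:**
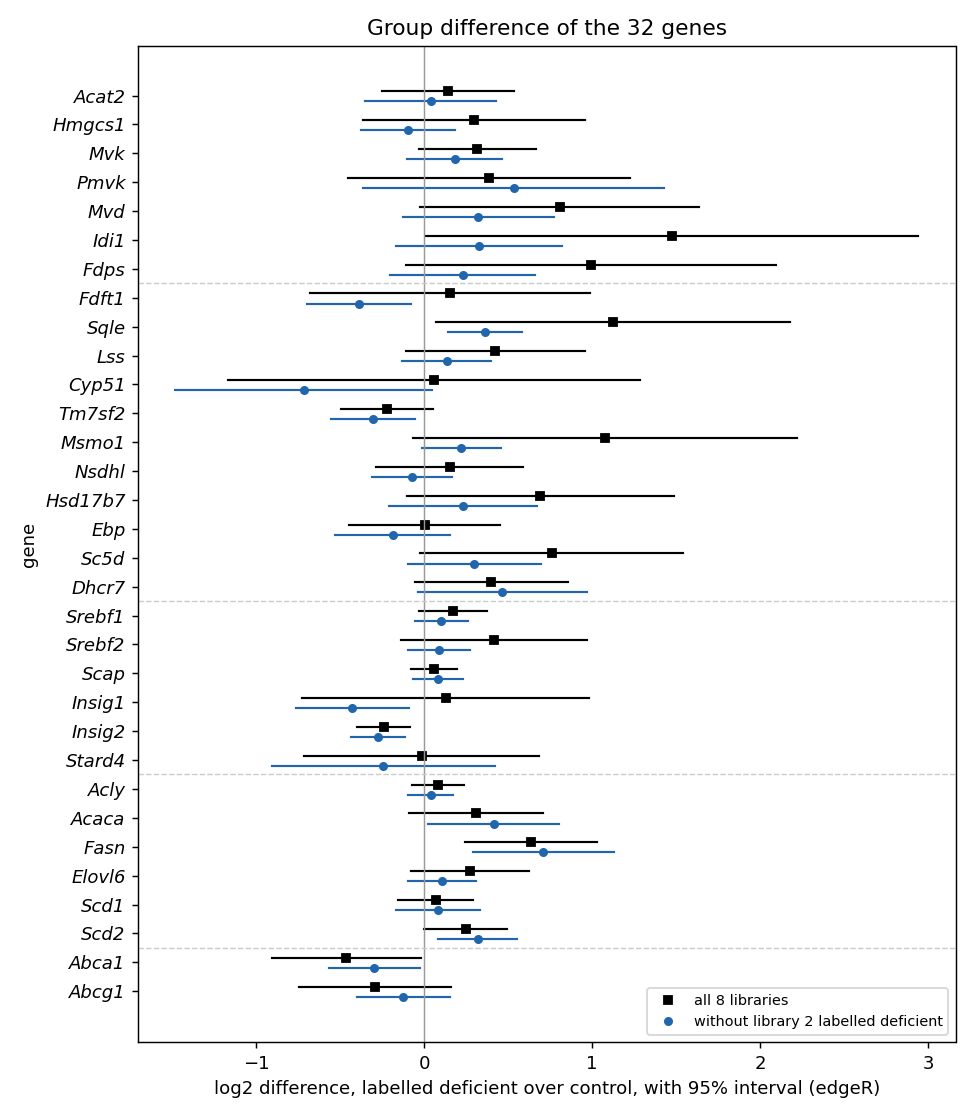
Log2 difference of labelled deficient over control with its 95% interval from edgeR (x axis) for each of the 32 genes (y axis; dashed lines part the mevalonate arm, the squalene and sterol arm, regulators and transport, fatty acid synthesis, and efflux). Black squares use all 8 libraries and blue circles leave out library 2 labelled deficient. The intervals of Idi1, Fdps, Sqle and Msmo1 narrow without that library and their estimates come down to between 0.22 and 0.36, while Fasn stays at 0.64 and 0.71.

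Among the regulators, Srebf2 and Insig1 also stood high in library 2. Srebf2, which encodes SREBP2 and is a target of its own protein, measured 65.0, 74.6, 76.9 and 70.6 CPM in the controls and 77.0, 155, 81.3 and 70.3 CPM in the labelled deficient libraries. Outside library 2 the groups overlapped (log2 difference 0.42 ± 0.24, adjusted p = 0.308 in edgeR; 0.09 ± 0.08 and 0.571 without it). Insig1, the SREBP-induced anchor of SCAP, measured 36.1, 38.2, 33.2 and 42.8 CPM against 23.6, 80.7, 34.4 and 25.6 CPM. As for Fdft1, library 2 was above all controls while libraries 1 and 4 were below them, and the log2 difference was 0.13 ± 0.37 with and -0.43 ± 0.14 without library 2 (adjusted p = 0.851 and 0.188).

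Insig2, the second SCAP anchor, which does not depend on SREBP in the same way, had the opposite sign (chromosome 1, 121304353 to 121332662). It measured 58.5, 52.4, 53.4 and 56.6 CPM in the controls and 42.9, 50.03, 48.4 and 45.4 CPM in the labelled deficient libraries. Every labelled deficient library lay below every control, and library 2 was the nearest to them. Insig2 had a mean of 55.2 ± 2.81 CPM against 46.7 ± 3.17 CPM (SD, n = 4), a ratio of 0.846 (95% interval 0.758 to 0.944; adjusted p = 0.108 in edgeR, 0.137 without library 2, and 0.0194 in DESeq2).

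The levels of Srebf1 and Scap differed little between groups, and Stard4 varied too much between libraries for its difference to be judged. Srebf1, which encodes SREBP1, was at 125 CPM in library 2 and 88.8 to 109 CPM elsewhere (log2 difference 0.17 ± 0.09, adjusted p = 0.255 in edgeR). Scap had an interval of the log2 difference from -0.08 to 0.19, and all 8 libraries lay between 96.8 and 110.5 CPM. Stard4, a carrier of sterol between membranes, ran from 8.49 to 18.5 CPM outside library 2, where it was 19.5 CPM, with control library 4 next. Its log2 difference was -0.01 ± 0.31, with a 95% interval from -0.71 to 0.69 (adjusted p = 0.983 in edgeR). Without library 2 it was -0.24 ± 0.28 (adjusted p = 0.686 in edgeR).

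Among the fatty acid synthesis genes, Fasn, Acaca and Scd2 were highest in libraries 1 and 4 labelled deficient, and Acly and Elovl6 in library 2. Fasn, the synthase that builds palmitate (chromosome 11, 120805958 to 120825166), measured 307, 288, 308 and 264 CPM in the controls and 613, 387, 343 and 469.7 CPM in libraries 1 to 4 labelled deficient. All labelled deficient libraries were above all controls, with libraries 1 and 4 highest and library 3 nearest. The means were 292 ± 20.5 and 453 ± 119 CPM (SD, n = 4), a ratio of 1.55 (95% interval 1.18 to 2.04). The adjusted p was 0.102 in edgeR and 0.0106 in DESeq2, and the log2 difference of 0.64 ± 0.17 was 0.71 ± 0.18 without library 2 and 0.45 without library 1. The exact permutation p, two-sided, was 0.0286, which restates that the groups did not overlap.

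Acaca, the carboxylase that supplies malonyl-CoA to FASN, measured 62.5, 58.1, 54.7 and 52.7 CPM in the controls and 98.1, 55.5, 58.5 and 70.3 CPM in the labelled deficient libraries. Libraries 1 and 4 were again the high ones, and libraries 2 and 3 lay within the control range (log2 difference 0.31 ± 0.17, adjusted p = 0.296 in edgeR). Without library 2 the log2 difference of Acaca was 0.41 ± 0.17 (adjusted p = 0.239 in edgeR). Scd2, a stearoyl-CoA desaturase, measured 649, 563, 587 and 502 CPM against 700.1, 586, 676 and 771 CPM. Its libraries 1, 3 and 4 lay above every control and library 2 did not (log2 difference 0.25 ± 0.11, adjusted p = 0.200, and 0.32 ± 0.10 with 0.178 without library 2).

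Scd1, the other desaturase and a neighbour of Scd2 on chromosome 19, showed no such order, with 36.8 to 48.8 CPM in the controls and 41.5 to 48.4 CPM in the labelled deficient libraries (log2 difference 0.07 ± 0.10). Reads of the 2 desaturases could be split between them, as their sequences are alike. Acly, which makes cytosolic acetyl-CoA from citrate and feeds both pathways, was at 255 CPM in library 2 and 210.2 to 238 CPM elsewhere (0.08 ± 0.07). Elovl6, which lengthens palmitate, was at 48.1 CPM in library 2 and 28.2 to 34.7 CPM elsewhere (0.27 ± 0.15, adjusted p = 0.292 in edgeR). Thus within this arm Elovl6 and Acly were highest in library 2 and Fasn and Acaca in library 1.

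Libraries 1 and 4 labelled deficient were the 2 highest of the 8 for 6 of the 32 genes: Pmvk, Dhcr7, Scap, Acaca, Fasn and Scd2. That order, noticed after the values were seen, held for 5.37% of all tested genes. All 6 fatty acid synthesis genes had a positive log2 difference, with a median of 0.26, and of 0.21 without library 2.

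Both efflux pumps had their lowest value in library 2, and neither passed the test between groups. Abca1, which loads cholesterol onto apolipoprotein A-I, measured 386, 333, 289.7 and 399.6 CPM in the controls and 269.9, 164, 298 and 290.2 CPM in the labelled deficient libraries. Control library 3 lay among the labelled deficient values, so the groups overlapped (log2 difference -0.46 ± 0.19, adjusted p = 0.188 in edgeR; -0.30 ± 0.12 and 0.229 without library 2). Abcg1, which passes cholesterol to lipoprotein particles, measured 62.5, 53.2, 55.5 and 61.2 CPM against 43.2, 30.2, 58.3 and 58.05 CPM. Only libraries 1 and 2 were below the controls (-0.29 ± 0.20, adjusted p = 0.377; -0.12 ± 0.12 and 0.610 without library 2). Library 2, highest in 15 of 18 sterol synthesis genes, was lowest in both pumps. Over all tested genes it was highest in 28.6% and lowest in 28.1%.

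**Figure D3:**
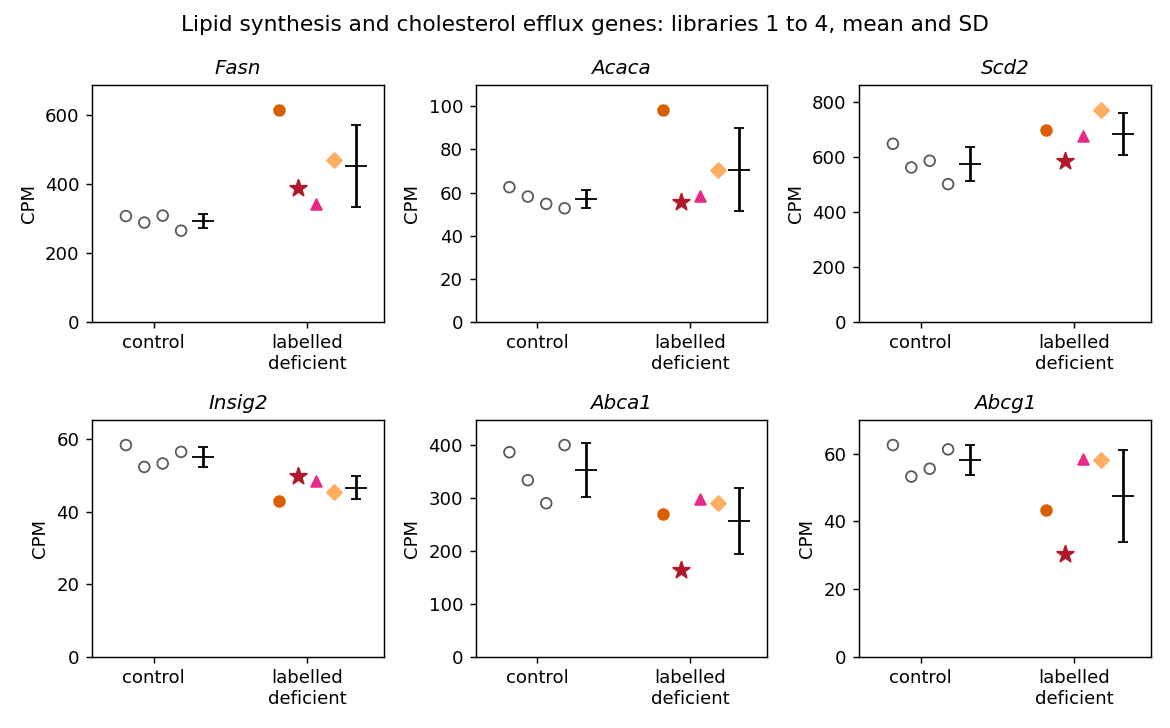
CPM (y axis, from 0) of 6 genes in each library of the 2 groups (x axis). Open circles are control libraries 1 to 4 from left to right, and the filled circle, star, triangle and diamond are libraries 1, 2, 3 and 4 labelled deficient. Black bars give the mean and SD of each group. Fasn is above and Insig2 below all controls in all 4 labelled deficient libraries, and Abca1 and Abcg1 are lowest at the star, with 164 and 30.2 CPM.

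Other genes of these pathways, from 4 lists, were looked at for comparison, and edgeR called 0 of them, as of all tested genes. DESeq2 called 3 of 14 further fatty acid and glycerolipid genes higher and 2 lower. It called 1 of 12 sterol and SREBP2 target genes lower and 1 of 9 SREBP processing genes higher. Of 12 liver X receptor and cholesterol handling genes it called 1 higher and 1 lower. Over all genes it called 7.43% higher and 6.72% lower, and no list was tested against these shares. Of 12 further sterol synthesis and SREBP2 target genes, 5 had a positive log2 difference (median -0.01). Library 2 was the highest of the 8 in 4 of these 12, and it exceeded the next library by more than 1.5 times in 2. The genes with the smallest p in this list were Fads1, a desaturase of polyunsaturated fatty acids, at 147, 129.5, 129 and 147 CPM against 105, 106, 109 and 125 CPM (log2 difference -0.31 ± 0.08, adjusted p = 0.101 in edgeR), Acss2, which makes acetyl-CoA from acetate (0.47 ± 0.21), and Rdh11 (-0.22 ± 0.10). All 4 labelled deficient libraries were below the controls for Fads1.

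Among 14 further fatty acid and glycerolipid synthesis genes, 9 had an unadjusted p under 0.05, 7 of them higher and 2 lower, against 24.8% of all genes. Elovl5, which lengthens polyunsaturated fatty acids, measured 266, 286, 275 and 241 CPM in the controls and 342, 345, 361 and 310.3 CPM in the labelled deficient libraries. Its groups did not overlap and its labelled deficient libraries lay close together (log2 difference 0.35 ± 0.08, adjusted p = 0.0906 in edgeR). Hacd3 and Tecr encode the dehydratase and the reductase of the same elongation cycle. Hacd3 was at 0.32 ± 0.08 and Tecr at -0.22 ± 0.06 (adjusted p = 0.0968 and 0.108), and neither overlapped between groups.

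Of 9 genes of SREBP processing and sterol sensing, 6 had a positive difference (median 0.10). Those with the smallest p were Ubxn8 (0.29 ± 0.08), Mbtps2, the site-2 protease that frees SREBP (0.21 ± 0.08), and Rnf139, a ubiquitin ligase (0.20 ± 0.10; adjusted p = 0.104, 0.177 and 0.259 in edgeR). Of 12 liver X receptor and cholesterol handling genes, 8 had a negative difference (median -0.06). Nr1h3, which encodes liver X receptor alpha, measured 44.1, 34.5, 40.7 and 44.7 CPM in the controls and 24.5, 17.8, 29.0 and 30.4 CPM in the labelled deficient libraries. All 4 of the latter were below every control and library 2 was lowest, as for Abca1 and Abcg1 (log2 difference -0.69 ± 0.17, adjusted p = 0.0969). Scarb1, the high-density lipoprotein receptor, was at -0.46 ± 0.16 and Lpcat3, a phospholipid remodelling enzyme, at 0.37 ± 0.10 (adjusted p = 0.145 and 0.101).

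Markers of other cell types and of cell division also differed between these libraries. The median log2 level of 12 epithelial markers relative to the controls was 1.23 in library 2, 0.83 in library 3, 0.04 in library 1 and -0.03 in library 4 labelled deficient. Their summed level ran from 1748 to 1973 CPM in the controls and from 1655 to 4010 CPM in the labelled deficient libraries. The list was split, as Krt18, Cldn3, Cldn4 and Wfdc2 were below their control means in library 2. The median of 7 cell division genes was 0.66, 0.91, -0.07 and -0.38 in libraries 1 to 4 labelled deficient (summed level 124 to 220.0 CPM in the controls, 136 to 376 CPM in the others). The median of 8 gland markers was -2.45 in library 2 and -0.88 in library 3, and 0.80 in library 4 (summed level 507 to 1440 CPM in the controls, 189 to 1383 CPM in the others). Of these, only Foxa2 was above its control mean in library 2 (14.7 against 13.6 CPM). The median of 8 macrophage markers was 0.29, 0.82, 0.77 and 0.38 in libraries 1 to 4 labelled deficient, and -0.15 to 0.31 in the controls (summed level 744 to 986 CPM, against 909 to 1245 CPM). The median of 7 endometrial stroma markers was -0.05, -0.66, -0.27 and -0.04 in those libraries (summed level 3334 to 3709 CPM in the controls, 2925 to 3465 CPM in the others). That of 7 blood vessel endothelium markers was 0.18, -0.59, -0.37 and 0.07 (879 to 1082 CPM, against 602 to 1086 CPM). For 10 myometrial smooth muscle markers it was -0.37, -0.15, -0.13 and -0.33, and -0.32 to 0.25 in the controls. Their summed level was 4574 to 6775 CPM in the controls and 4565 to 5326 CPM in the others. All 10 had a negative log2 difference between groups (median -0.24), and edgeR called 0 of them. The part of these cell types in the sterol and fatty acid values was not tested.

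**Figure D4:**
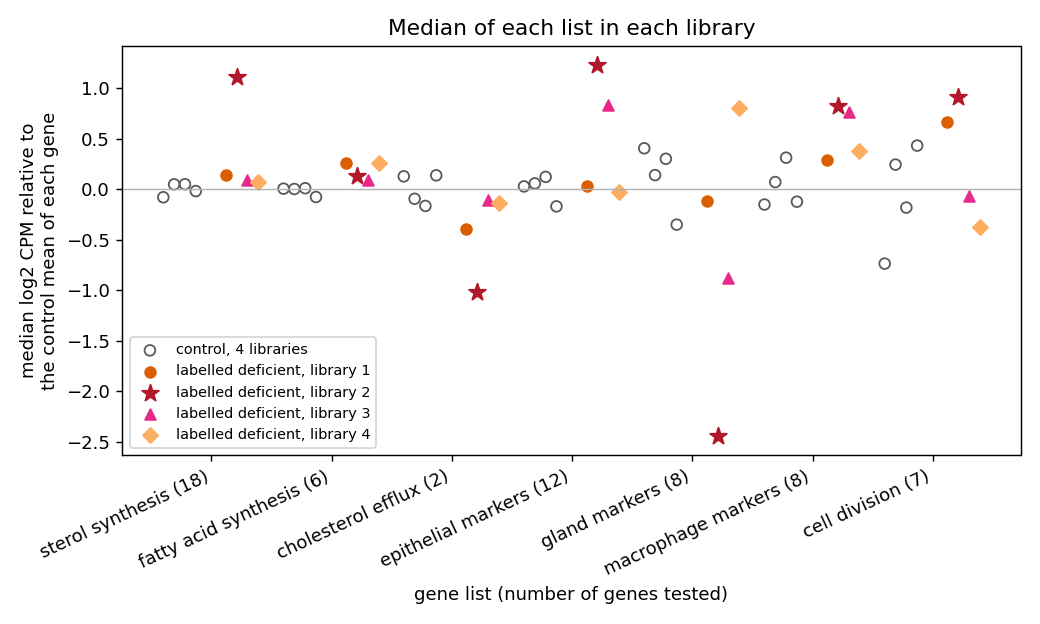
Median over each gene list of the log2 CPM relative to the control mean of each gene (y axis), by list (x axis, with the number of genes). Open circles are controls and filled symbols libraries 1 to 4 labelled deficient. The star, library 2, is at 1.11 for sterol synthesis, -1.02 for efflux, 1.23 for epithelial and -2.45 for gland markers.

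Markers of fat and ovary, tissues rich in these enzymes, were mixed, with some absent or nearly so and others detected in every library. Of 9 adipocyte markers, Adipoq, Plin1, Cidec, Cfd, Lep and Retn did not pass the count filter, with at most 6 reads in any library, while Lipe was at 36.1 to 58.6 CPM, Plin4 at 10.3 to 29.7 CPM and Fabp4 at 0.465 to 3.49 CPM; the summed level of these 3 was 62.0 to 72.1 CPM in the controls and 61.9 to 72.5 CPM in the labelled deficient libraries. Of 8 markers of ovary and steroid-making cells, Hsd3b1, Cyp17a1, Cyp19a1 and Fshr did not pass it either (at most 30 reads), and Cyp11a1 was at 0.0890 to 1.19 CPM, Star at 12.2 to 24.1 CPM and Inha at 10.9 to 19.1 CPM. The 30 reads were of Hsd3b1 in library 1 labelled deficient, with at most 2 reads in any other library. Cyp11a1 and Lhcgr (at most 20 reads) were also highest in that library, and Star and Inha in a control library. The summed level of the 4 that passed was 30.4 to 42.5 CPM in the controls and 23.3 to 35.5 CPM in the labelled deficient libraries. The part of these cells in the results was not tested.

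Strand is not stated for the counting, so reads where genes overlap may be shared. In the RefSeq annotation 13 of the 32 genes overlap another gene, most of them a non-coding RNA or pseudogene. Of these, 4 overlap a protein-coding gene: Fdft1 overlaps Ctsb, Tm7sf2 overlaps Vps51, Srebf1 overlaps Rai1, and Acaca overlaps Tada2a and Gm11437. The values of all 13 carry that limit.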

How the data were processed

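The authors deposited 1 table of whole-number counts per gene symbol for 8 libraries, not normalized. They used mm10, HISAT2 2.2.1 and HTSeq 0.10.0, per the submitters' processing notes; settings are not stated there. Columns were matched to samples by the code in each title. Older symbols were matched, and coordinates read, in RefSeq's table for GRCm38.p6 (mm10).

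Counts were filtered with filterByExpr, scaled with TMM and tested with edgeR 4.0.16 in R 4.3.3 (glmQLFit, glmQLFTest, group only; Benjamini-Hochberg over 17629 genes, threshold 0.05). Log2 differences are labelled deficient over control; SE and 95% intervals come from the F value. List medians use log2 CPM with a prior count of 2. Single genes were also compared by exact permutation. The test was tried on simulated counts. Alternatives were other scalings and filters, DESeq2 1.42.0, limma-voom 3.58.1, a replicate block and left-out libraries; DESeq2 without library 2 was added after seeing the data. Every pair of libraries differed beyond counting noise (chi-square per degree of freedom of at least 46.5). The members, lists and the rule for named genes (all members, Pgr, and the 3 genes of each other list with the smallest p; any others were picked after their values were seen) were chosen with earlier results of these data known.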

Additional observations from a re-analysis of the deposited data

Results flagged for a closer look

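Within each group of 4 libraries, a value was singled out where the gap from the highest or lowest library to its neighbour exceeded 0.829 of the group's whole range; chance does this in about 1 in 20 groups. This was so in 15 of the 144 gene and group pairs looked at, 12 of them among the 64 of the 32 members, and 10 of those 12 were library 2 labelled deficient.

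In that library the values were 123 CPM for Hmgcs1, 17.3 CPM for Idi1, 47.8 CPM for Fdps, 71.4 CPM for Fdft1, 60.4 CPM for Sqle, 22.6 CPM for Lss, 80.7 CPM for Cyp51, 51.0 CPM for Msmo1, 14.2 CPM for Hsd17b7 and 155 CPM for Srebf2, each above the other 3 libraries of its group.

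In the controls, library 2 was high for Acat2 (16.6 CPM, others 14.6 to 14.8 CPM) and low for Hsd17b7 (3.44 CPM, others 5.09 to 5.41 CPM). Outside the members, control library 4 was high for Acss2 (24.4 CPM) and for the stromal marker Hand2 (229 CPM), and control library 3 for the gland marker Cxcl15 (27.7 CPM).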

How the results depend on the processing

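No member was called by edgeR under any scaling, filter, block or left-out library tried. DESeq2 called 2 members (Fasn and Insig2) and 2488 genes, and without library 2 labelled deficient 4 members (Fasn, Insig2, Scd2 and Sqle) and 1531 genes; limma-voom called 2 genes. The number of genes called was 23 with the replicate block and ran from 0 to 2 over fits that left out 1 library (2 without control library 2). Over those fits between 2896 genes (control library 4 left out) and 5471 genes (library 4 labelled deficient left out) had an unadjusted p under 0.05. Members at an unadjusted p under 0.05 numbered 6 with all libraries, 3 with the replicate block, 10 without libraries 2 and 3 labelled deficient, 12 in DESeq2 without library 2, and from 2 (without control library 2 or 4) to 10 (without library 4 labelled deficient) when 1 library was left out; without control library 1 there were 3. The sterol synthesis median ran from 0.20 (without library 2) to 0.51 (without library 3) and the fatty acid median from 0.17 (without library 1) to 0.29 over such fits; the cause was not tested. Deviations of same-numbered libraries correlated at 0.20, 0.24, -0.01 and -0.08, and those of libraries with unlike numbers at -0.27 to 0.31. With 4 libraries per group these values cannot show whether the numbers pair the libraries. Under the block 5 members had the other sign (Cyp51, Ebp, Fdft1, Insig1 and Stard4), each between -0.01 and 0.15 without it. The lowest member count was 145 reads (Idi1, control library 1).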
